A study of Mus musculus with 2 samples.

Results

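The 10 immediate early response genes described here are Fos, Fosb, Jun, Junb and Jund of the AP-1 group, Egr1, Ier2, Ier3, Nr4a1 and Zfp36. They were chosen by name, and each was found once among the 45318 genes of the deposited count table through its Ensembl identifier. Levels are given as CPM (counts scaled to the size of the library). All 10 averaged at least 1 CPM over both libraries, the limit set for a gene to be counted as measured, as did 11504 genes in all. Expression was measured by poly(A)-selected, strand-preserving RNA sequencing of bone marrow leukaemia blasts from C57Bl/6 mice. The cells express the MLL/AF9 fusion, which drives acute myeloid leukaemia, and were sorted by their GFP. The vehicle group is 1 library from mice given vehicle, and the brequinar group is 1 library from mice given brequinar, an inhibitor of dihydroorotate dehydrogenase in pyrimidine synthesis. Both groups share the fusion, the marker and the strain. Age, dose, time, the number of animals pooled and the way the fusion was introduced are not stated in the labels.

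Immediate early genes are transcribed within minutes of a signal without new protein synthesis, mostly through the serum response factor, ternary complex factors and CREB at the end of MAP kinase and calcium pathways. Their products then carry the signal on. Fos and Jun proteins pair as AP-1, Egr1 and Nr4a1 bind DNA themselves, and Zfp36 protein shortens the life of mRNAs with AU-rich elements. Several of these transcripts are very short-lived, and they are known to respond to tissue dissociation and sorting as well as to signals in the animal.

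Since each treatment has 1 library, the spread between animals is unknown and no p-value is given. Gene counts summed to 47935476 in the vehicle and 47950714 in the brequinar library, and 1 count was worth 0.0202 and 0.0215 CPM. The leukaemia markers Hoxa9 (238 and 231 CPM) and Meis1 (71.6 and 87.4 CPM) were present in both libraries. In all pairs the vehicle value comes first. The libraries differed widely in myeloid maturity. All 12 markers of late granules and mature neutrophils were at least 2-fold higher with brequinar (summed level 1833 and 24985 CPM). Of 9 early myeloid markers, 5 were at least 2-fold lower (14821 and 6184 CPM). Over all measured genes, 6.45% were at least 2-fold higher and 4.40% lower. In sorted bulk RNA, fewer cells of a type and less RNA per cell cannot be told apart.

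The 10 genes did not move as a block. Nr4a1 was 10.7-fold higher in the brequinar library, Fosb was 2.24-fold lower, and the other 8 lay within 2-fold, with Jund and Jun close to that limit on the lower side. The size rule took a gene as higher or lower where its log2 ratio, computed with a prior count of 2, was at least 1 in either direction. By this rule 1 of 10 members was higher, against 6.45% of all 11504 genes, and 1 of 10 was lower, against 4.40%. When the whole counting interval had to lie beyond 2-fold, Nr4a1 and Fosb were again the genes called, against 5.22% of all genes higher and 2.50% lower. At 1.5-fold Nr4a1 was called higher, against 12.7% of all genes, and Fosb, Jund and Jun lower, also against 12.7%. Each count at 2-fold is 1 gene of 10, too few to set the group apart from those shares. The median log2 ratio was -0.14 over the members and 0.00 over all genes, with 6 members below 0 and 4 above. Summed over the 10 genes, the level was 807 CPM with vehicle and 679 CPM with brequinar.

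**Figure D1:**
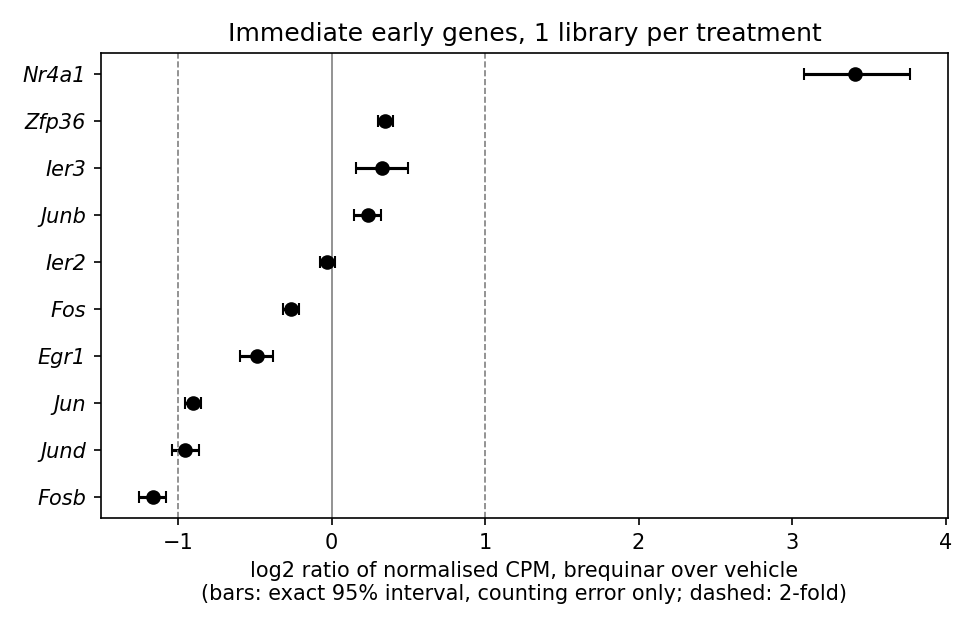
Log2 ratio of normalised CPM (brequinar over vehicle, x axis) for each of the 10 genes (y axis), 1 library per treatment; bars are exact 95% intervals for counting error only and dashed lines mark 2-fold. Nr4a1 stands alone on the right at 10.7-fold, Fosb lies wholly beyond 2-fold on the left, and the interval of Jund crosses that line.

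Promoter sequence is shown for the genes at both ends of this range, Nr4a1 and Fosb, and for Fos and Jun, the founding AP-1 pair. The stretches come from RefSeq (GRCm38.p6), run 5′ to 3′ on the gene's strand and end at the base before the first annotated start. They are chr15:101266596-101266845 (plus strand), chr7:19310052-19310295 (minus), chr12:85473640-85473889 (plus) and chr4:95052223-95052472 (minus). Capitals mark the motif matches found by search. Nr4a1 has another annotated start further upstream, which these bases do not cover.
Nr4a1: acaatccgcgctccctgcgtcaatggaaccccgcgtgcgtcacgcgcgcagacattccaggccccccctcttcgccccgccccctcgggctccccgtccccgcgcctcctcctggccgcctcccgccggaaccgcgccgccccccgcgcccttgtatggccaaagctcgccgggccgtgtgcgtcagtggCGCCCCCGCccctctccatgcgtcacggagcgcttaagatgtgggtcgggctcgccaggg
Fosb: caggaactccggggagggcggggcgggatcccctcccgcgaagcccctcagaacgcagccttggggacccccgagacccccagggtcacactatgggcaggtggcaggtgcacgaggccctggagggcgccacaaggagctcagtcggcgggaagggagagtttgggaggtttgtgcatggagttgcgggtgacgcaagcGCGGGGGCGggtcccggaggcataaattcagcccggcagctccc
Fos: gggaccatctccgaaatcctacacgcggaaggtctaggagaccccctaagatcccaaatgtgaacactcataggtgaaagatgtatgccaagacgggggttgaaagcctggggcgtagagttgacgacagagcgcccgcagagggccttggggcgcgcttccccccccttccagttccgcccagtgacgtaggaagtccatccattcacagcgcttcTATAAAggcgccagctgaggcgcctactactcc
Jun: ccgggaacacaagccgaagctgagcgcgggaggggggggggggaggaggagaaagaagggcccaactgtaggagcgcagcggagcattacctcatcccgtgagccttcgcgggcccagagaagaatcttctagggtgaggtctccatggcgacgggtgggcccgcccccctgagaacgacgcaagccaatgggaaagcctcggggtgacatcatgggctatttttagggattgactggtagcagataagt

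A window of 250 bases before to 50 after the start was found in RefSeq for 8 of the 10 genes, and both strands were searched. The Egr site, spelled GCGNGGGCG, occurred in 3 of 8 windows (Fosb, Nr4a1 and Zfp36) and in 5.55% of 32851 promoter windows of the same length. Positions count from the RefSeq start. In Fosb this start lies a few bases downstream of the end of the printed stretch, which stops at an earlier GENCODE start. The Egr site lies at -50 to -42 in Fosb, at -60 to -52 in Nr4a1 on the opposite strand, and at -105 to -97 in Zfp36. The CArG box, bound by serum response factor, occurred in Zfp36 alone, at -58 to -49, and in 1.63% of all windows. Zfp36, like Nr4a1, has another annotated start upstream of its window, and an annotated Zfp36 exon overlaps the searched bases before the start. The RefSeq start of Zfp36 lies 27 bases from the nearest GENCODE start. The TATA box, spelled TATAAA, occurred in Fos at -33 to -28, in Junb from the RefSeq start onwards, and in 13.6% of all windows. In Junb the RefSeq start lies 30 bases upstream of the nearest GENCODE start, so its match lies before that GENCODE start. None of the 8 windows held the CRE TGACGTCA (1.79% of all windows), the AP-1 site TGANTCA (7.81%), the NBRE AAAGGTCA bound by Nr4a receptors (1.51%) or the ETS site CCGGAAGT (3.89%). No match overlapped another motif, and the RefSeq start used for Jund lies 1210 bases from the nearest GENCODE start. Only fixed spellings were searched, so variant sites, and sites outside the windows, were not counted. The printed Jun stretch, for example, holds tgacatca, which differs from the CRE spelling. A match describes letters in this window and is not evidence of binding, and a missing match does not show that a promoter lacks the element. Genes with and without an Egr site were found on both sides of the treatment ratio.

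Fos (chr12:85473890-85477273, plus strand), whose short-lived protein is the classical inducible partner in AP-1, had 6989 counts with vehicle and 5471 with brequinar. These counts are 141 and 118 CPM, a 1.20-fold lower level (exact 95% interval 1.16 to 1.24, counting error only, as for all intervals here). Fosb (chr7:19302696-19310051, minus strand), a close relative whose shorter splice form is stable and accumulates on repeated stimulation, had 3584 and 1500 counts. Its level was 72.4 and 32.3 CPM, 2.24-fold lower (2.11 to 2.38), and 3.11% of all genes had a lower ratio. The count table gives 1 value per gene, so the Fosb splice forms cannot be told apart. Of this pair, Fosb differed more between the libraries.

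The other Fos family genes went the opposite way. Fosl2, which encodes Fra-2, had 789 and 1751 counts (15.9 and 37.7 CPM), 2.36-fold higher (2.17 to 2.57). Fosl1, which encodes Fra-1, had no count with vehicle, which allows up to 0.0606 CPM, and 26 counts with brequinar (0.560 CPM). Shares within a family do not depend on the scaling between libraries. Fos held 61.5% of the Fos family's counts with vehicle (exact binomial 95% interval 60.6 to 62.4) and 62.5% with brequinar (61.5 to 63.6). Fosb held 31.5% (30.7 to 32.4) and 17.1% (16.4 to 18.0), and Fosl2 held 6.94% (6.48 to 7.43) and 20.0% (19.2 to 20.9). The intervals for the share of Fos overlapped, while the share of Fosb was smaller and that of Fosl2 larger with brequinar beyond counting error. Shares of counts also reflect transcript length, and isoform use was not measured.

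Jun (chr4:95049034-95052222, minus strand), the activating partner of Fos, had 8317 and 4175 counts. Its level was 168 and 89.9 CPM, 1.87-fold lower (1.80 to 1.94). Jund (chr8:70698949-70700616, plus strand), the family member with steady expression in many resting cells, had 3288 and 1596 counts. Its level was 66.4 and 34.4 CPM, 1.93-fold lower with an interval of 1.82 to 2.05 that spans the 2-fold limit. With scaling by total gene counts its log2 ratio was -1.04 and it counted as lower. Of all genes, 5.50% had a ratio below that of Jun and 4.89% below that of Jund.

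Junb (chr8:84974484-84978718, minus strand), which can oppose Jun at some promoters and restrains myeloid growth, had 1924 and 2126 counts. Its level was 38.9 and 45.8 CPM, 1.18-fold higher (1.11 to 1.25), so it parted from Jun and Jund. Junb held 14.2% of the Jun family's counts with vehicle (13.6 to 14.8) and 26.9% with brequinar (25.9 to 27.9). Jun held 61.5% (60.6 to 62.3) and 52.9% (51.8 to 54.0), and Jund 24.3% (23.6 to 25.0) and 20.2% (19.3 to 21.1). The Jun family summed to 273 and 170.0 CPM. All 5 AP-1 members together summed to 487 and 320.1 CPM, 1.52-fold lower (1.49 to 1.55).

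The strand setting of the count is not given in the sources used here. It is therefore not known whether reads of a gene and its antisense neighbour were separated, mixed or set aside. The count labelled 1.23% of vehicle and 1.12% of brequinar reads as ambiguous. Junos, a noncoding gene annotated antisense to Jun, had 20 and 145 counts, a 7.72-fold higher level (4.82 to 13.02) at a small fraction of Jun's counts. Gm11175, antisense to Jund, had 23 and 10 counts. Prdx2, a peroxiredoxin gene on the other strand from Junb, had 6013 and 4866 counts, more than Junb itself. The value of Junb is the one most exposed to this limit.

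**Figure D2:**
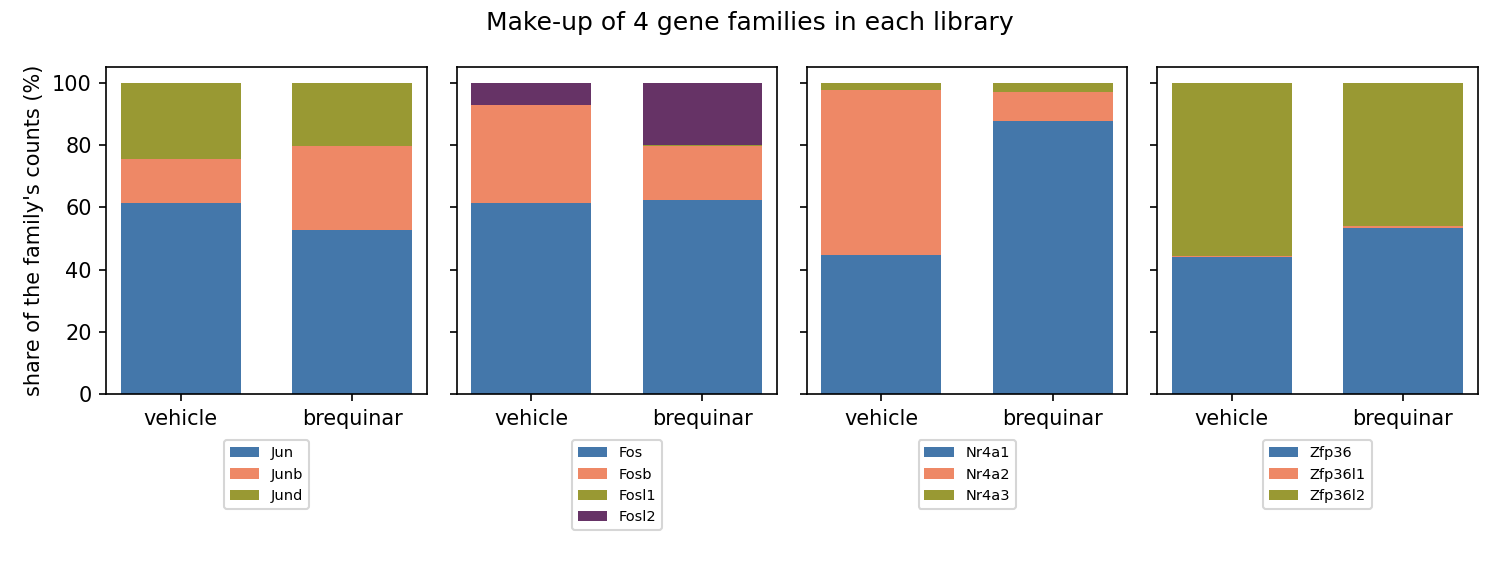
Share of each family's counts (y axis, percent) held by each gene in the vehicle and brequinar libraries for the Jun, Fos, Nr4a and Zfp36 families. Junb grows from 14.2% to 26.9% of the Jun family, Fosl2 from 6.94% to 20.0% of the Fos family and Nr4a1 from 44.6% to 87.7% of the Nr4a family, while Fos stays near 62% of its own.

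Egr1, a zinc finger factor that binds GC-rich sites and favours the monocyte fate in myeloid precursors, had 1737 and 1162 counts. Its level was 35.1 and 25.0 CPM, 1.40-fold lower (1.30 to 1.51). Egr2 had 31 and 29 counts, Egr3 had 0 and 12, and Egr4 had none in either library, so Egr1 held nearly all counts of its family. Nab1 and Nab2 encode corepressors that bind Egr proteins and dampen them. Nab1 stood at 68.6 and 109 CPM, and Nab2 at 3.62 and 7.62 CPM, past the 2-fold limit here but not with scaling by total gene counts.

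Ier2 (chr8:84661331-84662852, minus strand), a small nuclear protein gene induced with Fos and Jun, had 7474 and 6885 counts. Its level was 151 and 148 CPM, a ratio of 0.981 whose interval of 0.950 to 1.01 holds equality. With the main scaling Ier2 was the single member whose interval held 1. Its interval excludes a difference of 2-fold in these libraries, but it does not cover the choice of scaling. With scaling by total gene counts the log2 ratio of Ier2 was -0.12, beside -0.03 with the main scaling. Ier3 (chr17:35821684-35822923, plus strand), a survival and stress gene under NF-kB and p53, had 548 and 646 counts. Its level was 11.1 and 13.9 CPM, 1.26-fold higher (1.12 to 1.41). Ier5, a relative of Ier2, stood at 15.3 and 38.6 CPM and was past 2-fold on the higher side, apart from both.

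Nr4a1 (chr15:101254269-101274795, plus strand) encodes the orphan nuclear receptor Nur77, which acts without a known natural hormone, is induced by antigen receptor and inflammatory signals, is needed for nonclassical monocytes and, together with Nr4a3, restrains acute myeloid leukaemia in mice. It had 79 counts with vehicle and 790 with brequinar. Its level was 1.60 and 17.0 CPM, 10.7-fold higher (8.44 to 13.6), and 99.5% of all genes had a lower ratio. Under each other scaling, filter and prior count tried, its log2 ratio lay between 3.29 and 3.40. Nr4a2 stood level at 94 and 86 counts, and Nr4a3 had 4 and 25. Nr4a1 therefore held 44.6% of the family's counts with vehicle (37.2 to 52.3) and 87.7% with brequinar (85.4 to 89.8), and Nr4a2 went from 53.1% (45.5 to 60.6) to 9.54% (7.71 to 11.7).

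Several genes of cells known to express Nr4a1 were higher in the same library. The shares to set beside each list here are 6.45% higher and 4.40% lower over all measured genes. Of 9 nonclassical monocyte markers 4 were at least 2-fold higher and none lower. Their summed level was 721 and 856 CPM, and none was at 0 in either library. By log2 ratio 8 of them lay above 0, and Pou2f2 lay below it at -0.41. Treml4 stood at 0.243 and 3.01 CPM and Ace at 0.566 and 5.04 CPM, while the most abundant markers were Spn (559 and 586 CPM), Itgal (90.6 and 141 CPM) and Fcgr4 (25.1 and 82.3 CPM). Of 12 resident macrophage markers 10 were measured and 8 of these were at least 2-fold higher, with a summed level of 640 and 923 CPM and none at 0. The most abundant were Vcam1 (370 and 496 CPM), Adgre1 (221 and 225 CPM) and Slc40a1 (42.0 and 134 CPM). Classical monocyte markers gave 2 of 6 lower and none higher (1051 and 1040 CPM). The part of these cells in the Nr4a1 level was not tested.

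With 2 libraries, likeness to Nr4a1 is a single number, the log2 ratio. Among 2191 genes with a mean level within 2-fold of that of Nr4a1, the nearest in ratio were Mmp25, a membrane-bound metalloproteinase gene of neutrophils (1.82 and 19.6 CPM), Slc6a12, a betaine and GABA transporter gene (0.829 and 8.87 CPM), and Slco4c1, an organic anion transporter gene (1.31 and 14.5 CPM). Their log2 ratios were 3.40, 3.36 and 3.43, beside 3.38 for Nr4a1.

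Zfp36 (chr7:28376784-28380253, minus strand) encodes tristetraprolin, which recruits deadenylases to AU-rich mRNAs such as Tnf. It had 6008 and 7186 counts, 121 and 155 CPM, 1.27-fold higher (1.23 to 1.32). Its relative Zfp36l2 stood at 153 and 133 CPM, and Zfp36l1 at 1.29 and 2.45 CPM. Zfp36 held 44.0% of the 3 genes' counts with vehicle (43.2 to 44.8) and 53.2% with brequinar (52.4 to 54.1). Of 11 AU-rich transcripts that its protein is known to act on, 6 were measured, of which Zfp36 and Ier3 are themselves among the 10 genes. The other 4 were Cxcl2 (0.808 and 5.47 CPM), Ptgs2 (1.48 and 4.46 CPM) and Tnf (4.22 and 10.6 CPM), all past 2-fold on the higher side, and Ccl3 (24.9 and 18.9 CPM). Over all genes 6.45% were at least 2-fold higher and 4.40% lower. Where the mean had to reach 5 CPM, Tnf was the only AU-rich transcript called. Zfp36 itself lay within 2-fold.

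Between genes, levels are compared as CPM per kilobase of annotated exon. With vehicle the order from the top was Ier2 (99.2), Fos (60.1), Jun (52.7), Jund (39.8), Zfp36 (35.0), Junb (16.9), Fosb (11.6), Ier3 (9.79), Egr1 (7.83) and Nr4a1 (0.455), and no neighbours had overlapping counting intervals. With brequinar it was Ier2 (97.4), Fos (50.1), Zfp36 (44.6), Jun (28.2), Jund (20.6), Junb (19.9), Ier3 (12.3), Egr1 (5.58), Fosb (5.17) and Nr4a1 (4.85). There Jund and Junb, Egr1 and Fosb, and Fosb and Nr4a1 overlapped. The highest gene stood 218-fold above the lowest with vehicle and 20.1-fold with brequinar. Of all measured genes, 95.8% lay below Ier2 and 5.47% below Nr4a1 with vehicle, and 95.3% and 40.4% with brequinar. The bottom of the range thus moved far more than the top. Using the longest transcript as length moved 2 of the 10 genes to another place in the vehicle order and 5 in the brequinar order.

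**Figure D3:**
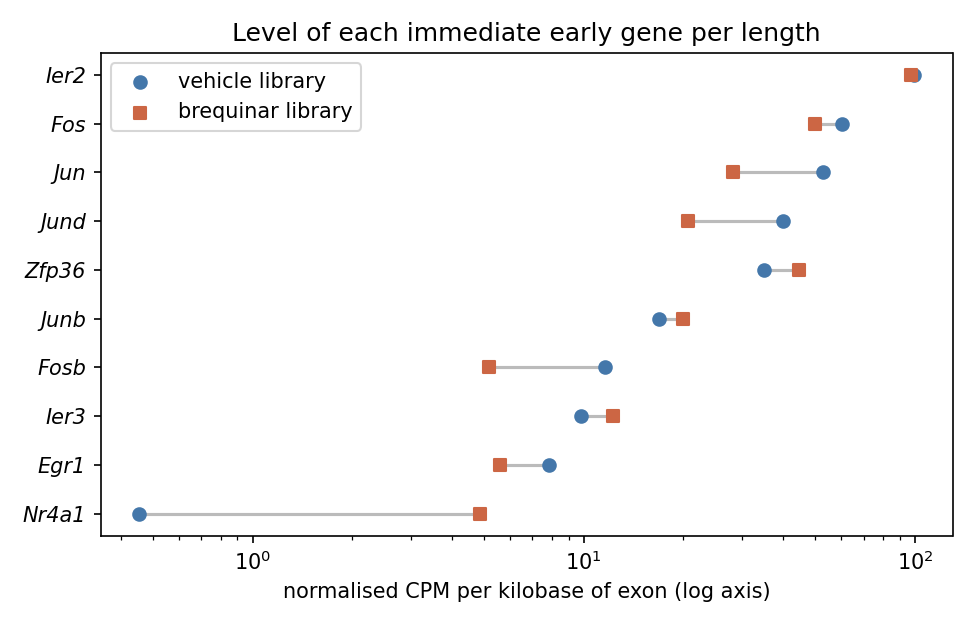
Normalised CPM per kilobase of exon (x axis, log scale) of each gene (y axis, in the vehicle order) in the vehicle library (circles) and the brequinar library (squares). Ier2 stays at the top near 98, Jun, Jund and Fosb lie to the left with brequinar, and Nr4a1 spans from 0.455 to 4.85.

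**Figure D4:**
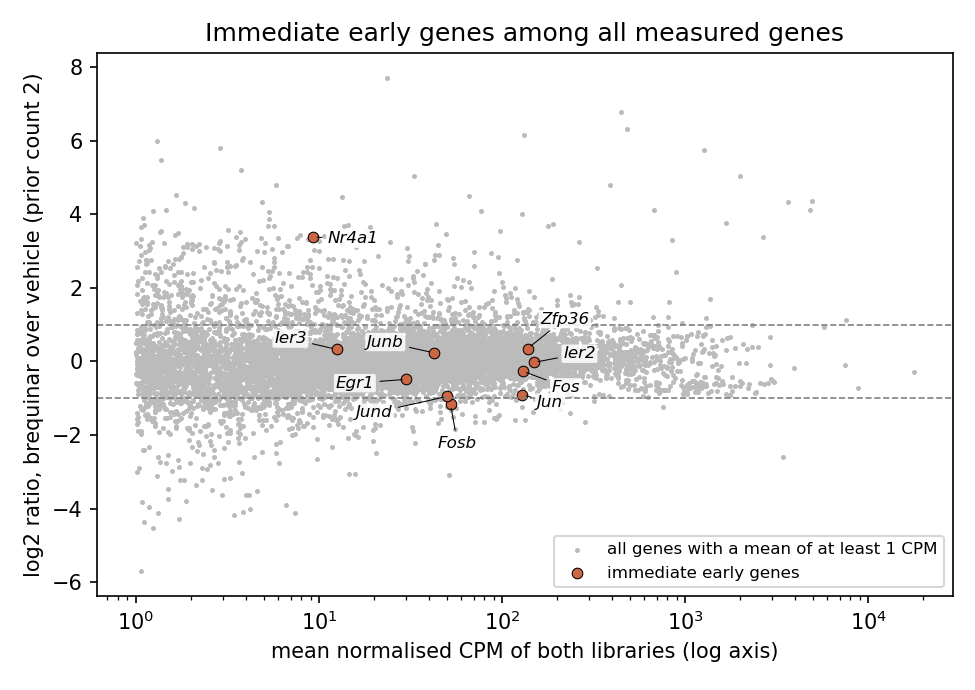
Log2 ratio, brequinar over vehicle (y axis, prior count 2), against mean normalised CPM (x axis, log scale) for the measured genes that have a symbol (grey) and the 10 immediate early genes (labelled). Nr4a1 at 3.38 and Fosb at -1.16 lie outside the dashed 2-fold lines. The others lie within them, Jun (-0.90) and Jund (-0.95) close to the lower line.

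The genes that feed immediate early transcription lay within 2-fold. Of 30 genes of the serum response, CREB and MAP kinase pathways, all of them measured, none was past 2-fold. Over all genes 6.45% were at least 2-fold higher and 4.40% lower. The median log2 ratio of the list was 0.15, with 23 genes above 0 and 7 below. Their summed level was 3204 and 3773 CPM. Srf, the serum response factor gene, stood at 128 and 132 CPM. Among the largest differences were those of Creb1, the cyclic AMP response factor gene (117 and 218 CPM), the ternary complex factor gene Elk3 (26.8 and 17.8 CPM) and Atf1, a relative of Creb1 (87.9 and 125 CPM). mRNA levels of kinases do not report their activity.

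Among 10 measured genes of MAP kinase feedback, 3 were at least 2-fold higher and none lower (6.45% and 4.40% of all genes), with a median log2 ratio of 0.12. Dusp6, which encodes the cytoplasmic phosphatase of ERK, stood at 3.78 and 25.4 CPM, 6.73-fold higher (5.76 to 7.89). Dusp5, the nuclear ERK phosphatase gene (4.81 and 12.7 CPM), and Spred2, an inhibitor of Ras signalling (10.9 and 25.5 CPM), were also past the limit. Spred1 lay just within it (9.98 and 19.6 CPM). Dusp1, which acts on p38 and JNK and is itself an immediate early gene, stood at 117 and 101 CPM and Dusp2 at 25.7 and 19.8 CPM, both slightly lower as Fos and Egr1 were.

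Other AP-1 and Maf factors had a median log2 ratio of 0.83, with 5 of 11 measured genes higher and none lower, against 6.45% of all genes higher. Maf, a macrophage differentiation factor (0.950 and 2.63 CPM), and Batf2 (1.80 and 4.74 CPM), an interferon-induced factor, were higher at low levels, as was the stress factor gene Atf3 (1.17 and 2.50 CPM). Fosl2, described above, was also called, and it was the single one still called where the mean had to reach 5 CPM. The more abundant Mafg (70.0 and 92.1 CPM), Atf2 (63.4 and 71.4 CPM) and Atf7 (50.5 and 49.4 CPM) lay within 2-fold. Relatives of the Egr, Nr4a, Ier and Zfp36 genes together with the Nab genes gave 2 of 6 higher, Ier5 and Nab2, and none lower. Their median was 0.78, and 6.45% of all genes were higher and 4.40% lower. With scaling by total gene counts 1 was higher, since Nab2 then had a log2 ratio of 0.98.

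Other rapidly induced genes had a median log2 ratio of 0.85, and 10 of 25 were past 2-fold on the higher side, none on the lower, against 6.45% and 4.40% of all genes. Where the mean had to reach 5 CPM, 4 were called. The largest ratio was that of Cxcl2, a neutrophil chemokine, which was 6.76-fold higher (4.83 to 9.69). It was followed by Trib1, a pseudokinase that promotes C/EBP alpha decay (4.87 and 24.4 CPM), Socs3, a cytokine signalling inhibitor (0.566 and 2.65 CPM), and Phlda1 (0.626 and 2.30 CPM). Abundant genes of this list stood nearer to level, with Rhob at 226 and 171 CPM, Mcl1 at 219 and 287 CPM and Klf6 at 105 and 167 CPM. Resident macrophage markers and late neutrophil markers, given above, were higher in the same library, and their part in these lists was not tested.

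Heat shock genes, which respond to handling as immediate early genes do, had a median log2 ratio of -0.13, with 1 of 11 lower and none higher, against 4.40% and 6.45% of all genes. Hspa1a, an inducible Hsp70 gene, stood at 3.54 and 1.53 CPM, and its near-identical copy Hspa1b at 6.69 and 3.34 CPM, so the split of reads between them is uncertain. Hsp90ab1, an abundant chaperone gene, stood at 3119 and 1737 CPM, and Hspe1, the mitochondrial co-chaperone gene, at 108 and 72.2 CPM. Dnajb1, the co-chaperone gene that is induced with Hspa1a, stood at 69.4 and 77.2 CPM. The list gave 0 calls where the mean had to reach 5 CPM, and 0 where the whole counting interval had to lie beyond 2-fold. The part of handling in the members' values was not tested.

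**Figure D5:**
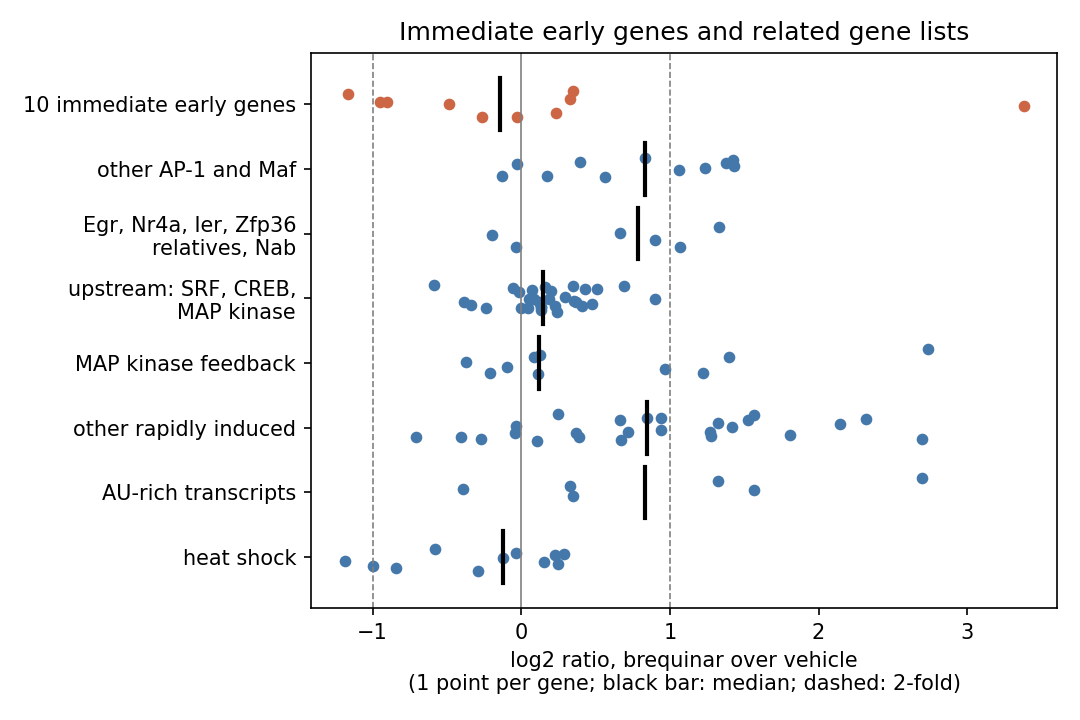
Log2 ratio, brequinar over vehicle (x axis), of every measured gene in each list (rows), with the 10 immediate early genes on top; black bars are medians and dashed lines mark 2-fold. The pathway genes upstream cluster near 0.15, while the lists of other AP-1 factors and of other rapidly induced genes have medians of 0.83 and 0.85 beside -0.14 for the 10 genes.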

How the data were processed

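The authors deposited raw counts, whole numbers of reads assigned to each gene, for 2 libraries, 1 per treatment. Per the submitters' processing notes, tools included STAR 2.4.2a and Picard 1.99 and 2.2.4, with build mm10. The counting program, strand setting and annotation release are not stated there. Reads that name no gene (21.6% of vehicle and 20.2% of brequinar reads) stayed out of library sizes. Symbols, coordinates and exon lengths came from GENCODE mouse release 21 (GRCm38, the assembly that mm10 names), which matched 44585 of 45318 identifiers. Promoters came from RefSeq.

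Libraries were put on one scale with TMM factors from edgeR 4.0.16 (R 4.3.3), and log2 ratios used a prior count of 2. A gene was measured where its CPM averaged at least 1 over both libraries, and called at 2-fold. Ratio intervals are exact (Clopper-Pearson, 95%) and cover counting error only, since each treatment has 1 library. PCR copies were not marked by molecular identifiers, and the intervals do not cover their effect either. Intervals of levels per length, used for overlaps in the order, are exact Poisson. A count of 0 allows up to 3 counts. No test between treatments was possible.

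The members, the 7 pathway and 11 marker lists and the alternatives were chosen with earlier results of these data known. The rule for names took all 10 members, up to 4 genes per pathway list with the largest absolute log2 ratio, the 3 genes nearest to Nr4a1, and the 3 most abundant markers of a list. A few genes that the rule names are not reported here. Atf3, Fosl1, Nr4a2, Nr4a3, Egr2, Egr3, Egr4, Srf, Dusp1, Dusp2, Dnajb1, Zfp36l2, Treml4, Ace, the abundant genes of the lists and the antisense neighbours were named after their values were seen. On simulated counts with counting error only (11500 genes entered), 100 of 100 genes changed 4-fold and 0 of 100 changed 1.5-fold were called, with 0 unchanged genes called. The changed genes were drawn from those above 5 CPM, so changed genes between 1 and 5 CPM were not covered. With a 2-fold limit and no spread between animals, these outcomes largely follow from the rule. Python 3.11.15, numpy 2.4.6, pandas 2.3.3, scipy 1.17.1, matplotlib 3.10.9 and DESeq2 1.42.0 (for an alternative scaling) were also used.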

Additional observations from a re-analysis of the deposited data

How the results depend on the processing

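Every member kept the direction of its ratio under each scaling, filter and prior count tried, and Nr4a1 alone was called higher and Fosb called lower throughout. TMM lay 0.091 (log2) above scaling by total gene counts. With total gene counts, and with totals that leave out mitochondrial genes and the 50 most abundant ones, 2 members were lower (Fosb and Jund), 1 of the Egr, Nr4a, Ier and Zfp36 relatives was higher and 2 heat shock genes were lower. At 1.5-fold 3 members were lower (Fosb, Jun and Jund), beside 1456 higher and 1463 lower genes in all. At this limit 4 relatives, 2 upstream genes and 16 other rapidly induced genes were higher, and 1 upstream, 1 other rapidly induced and 3 heat shock genes were lower. Without a filter 21287 genes entered, of which 2470 were higher (11.6%) and 2074 lower (9.74%). In that setting 4 relatives and 6 AU-rich transcripts were higher, and 2 feedback and 2 heat shock genes were lower. With a mean of at least 5 CPM 9483 genes entered, of which 457 were higher (4.82%) and 230 lower (2.43%). There 1 other AP-1 factor, 4 other rapidly induced genes, 1 AU-rich transcript and 0 heat shock genes were called. Where the whole counting interval had to lie beyond 2-fold, 288 genes were lower, 2 other AP-1 factors and 1 relative were higher, and 0 heat shock genes were lower. Heat shock calls were 2 with upper quartile scaling, a prior count of 0.5 or the deeper library thinned, since Hspa1b lies at the limit. The main counts were 742 higher and 506 lower genes. With the longest transcript as length the highest member stood 159-fold above the lowest with vehicle. The cause of these differences between settings was not tested beyond the settings' own construction. No paired analysis was possible because each group holds 1 library, and for the same reason no library could be left out.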

Other observations

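Some feedback and family genes lay below a mean of 1 CPM and entered no count above. Dusp16, a JNK and p38 phosphatase gene, had 10 counts with vehicle and 40 with brequinar, and Il10, an anti-inflammatory cytokine gene with AU-rich elements, had 0 and 5. Dusp4 had 8 and 2 counts and Spred3 had 10 and 2, so the low feedback genes lay on both sides. Ccn1, a matrix gene and immediate early target in adherent cells, had no count in either library, and Ccn2 had 3 and 2. Markers of stroma and endothelium summed to 1.96 and 2.65 CPM. Erythroid markers were at least 2-fold higher for 11 of 11 measured genes, against 6.45% of all genes, with a summed level of 80.9 and 278 CPM.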
